A study of Mus musculus with 32 samples.

Results

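Levels of 8 genes of the sarcomere, the contractile unit of striated muscle, were followed through the differentiation of C2C12 cells, a mouse myoblast line that fuses into myotubes when growth medium is exchanged for differentiation medium. They were taken as every probe set annotated to a fixed list of names: the tropomyosins Tpm1, Tpm2 and Tpm3 of the thin filament, the alpha-actinins Actn2 and Actn3 of the Z-disc, the myomesins Myom1 and Myom2 of the M-band, and Mybph, a myosin-binding protein of the thick filament. The rule gave 11 probe sets of 8 genes, out of 12422 probe sets of 8251 genes, with 2 probe sets each for Tpm2, Tpm3 and Actn3. No measured value entered the rule, although the members were chosen with earlier results of these data known.

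RNA was measured on 32 Affymetrix arrays in 2 arms, whose values are not compared with each other. In the TSA arm (20 arrays, 2 per group), trichostatin A (TSA) was the treatment, a compound that inhibits zinc-dependent histone deacetylases. TSA-treated cells were set against control cells at 0 h, when both were in growth medium, and at 4, 12, 24 and 48 h of differentiation medium. In the Sir2 arm (12 arrays, 3 per group), cells with pHan carrying Sir2, an NAD-dependent deacetylase known in mouse as Sirt1, were set against cells with pHan alone, called vector cells here, after 12 and 36 h in differentiation medium. The labels used here do not give the dose and schedule of TSA, whether the pHan cells were clones or pools, or whether replicates were separate cultures, so a p-value reflects the spread between these samples alone, which may be technical.

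Thin filaments of actin and tropomyosin are anchored at the Z-disc by alpha-actinin, and thick filaments of myosin are held in register at the M-band by myomesins. Tropomyosin lies along actin and, with troponin, lets calcium switch contraction on and off. Sarcomere genes are switched on as myoblasts stop dividing and fuse, whereas tropomyosin genes also make non-muscle forms, from other promoters and splice sites, which stabilise the actin cables of undifferentiated cells.

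The promoters of Mybph and Tpm2, which rose with differentiation, and of Tpm1, which did not, are printed as examples of both courses among the 6 members with a promoter entry. Each runs from 250 bases before the annotated start to 50 bases after it, 5′ to 3′ on the gene's strand, from RefSeq (GRCm38.p6), and capitals mark motif matches. The windows are chr1:134193198-134193497 (plus strand) for Mybph, chr4:43523505-43523804 (minus strand) for Tpm2 and chr9:67049164-67049463 (minus strand) for Tpm1.
Mybph: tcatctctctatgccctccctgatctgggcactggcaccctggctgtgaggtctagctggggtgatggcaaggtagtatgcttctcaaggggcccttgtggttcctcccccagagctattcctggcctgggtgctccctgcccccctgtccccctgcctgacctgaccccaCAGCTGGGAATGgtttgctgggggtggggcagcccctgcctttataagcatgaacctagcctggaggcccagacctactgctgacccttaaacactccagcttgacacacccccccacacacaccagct
Tpm2: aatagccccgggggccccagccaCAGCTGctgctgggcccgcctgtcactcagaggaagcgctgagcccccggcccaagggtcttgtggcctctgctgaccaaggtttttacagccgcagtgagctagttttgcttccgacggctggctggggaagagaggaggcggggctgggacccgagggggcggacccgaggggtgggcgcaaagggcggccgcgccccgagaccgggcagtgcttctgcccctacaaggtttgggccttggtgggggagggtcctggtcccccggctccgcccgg
Tpm1: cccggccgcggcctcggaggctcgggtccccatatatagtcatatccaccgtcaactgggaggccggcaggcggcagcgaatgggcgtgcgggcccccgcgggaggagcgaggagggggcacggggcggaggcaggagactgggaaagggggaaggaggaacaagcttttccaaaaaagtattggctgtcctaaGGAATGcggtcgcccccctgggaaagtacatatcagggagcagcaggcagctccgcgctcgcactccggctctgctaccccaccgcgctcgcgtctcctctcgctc
Motifs were searched on both strands as CAGCTG and CACCTG (E-boxes, read by myogenic factors), CATTCC (the M-CAT box) and the MEF2 and CArG boxes by name. In Mybph, CAGCTG began 79 bases before the start and was followed directly, with no shared base, by GGAATG, the M-CAT box on the opposite strand, 73 bases before the start. The Tpm2 window held CAGCTG 227 bases before the start, and the Tpm1 window held GGAATG 56 bases before it. These matches are common: of 32851 promoters of the same length, 16.3% held CAGCTG, 20.2% CACCTG, 14.7% the M-CAT box, 0.557% a MEF2 box and 1.63% a CArG box. Of the other members with an entry, Myom1 held a CArG box 99 bases before its start, 1 of the 2 Tpm3 windows held CAGCTG 175 bases before its start, and the Actn2 window held none of the motifs. Actn3 and Myom2 have no entry in the promoter table.

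A few facts hold for all results. All 6 myoblast and myotube markers on the array (Myod1, Myf5, Myog, Cdh15, Des, Ncam1) were measured, and their summed intensity lay between 10019 and 46072 over the TSA-arm arrays and between 3561 and 7927 over those with pHan, while Ptprc, Cd3e, Itgam and Lyz2, markers of leukocytes, summed to at most 115 in the first arm and 32.7 in the second. The myoblast and myotube sum was higher in TSA than in control arrays from 0 to 24 h without overlap. At 0 h it was 18337 to 18340 in TSA cells and 10019 to 10798 in control cells. At 48 h the groups overlapped. It was lower in Sir2 than in vector arrays, at 3561 to 4293 against 5530 to 6135 at 12 h. At 36 h it was 6466 to 6981 in Sir2 and 7138 to 7927 in vector cells. Its genes differed: mean Myog was 560 in TSA and 2208 in control cells at 12 h. The summed intensity of 6 smooth muscle markers (Myh11 dim in every group, Smtn below 0 in the TSA arm except in TSA cells at 48 h, Cnn1 dim in the Sir2 arm) was higher in TSA than in control arrays at every time without overlap (24643 to 28895 in TSA cells and 14866 to 17085 in control cells at 48 h), and lower in Sir2 than in vector arrays (2146 to 2439 in Sir2 cells and 3151 to 3481 in vector cells at 36 h). Acta2 was the largest part of this sum, which also holds Des of the myoblast list, and the genes did not all move alike. At 12 h mean Acta2 (14151 in TSA cells, 14698 in control cells) and Cnn1 were lower with TSA, while Tagln, Des, Myh11 and Smtn were higher. With Sir2 at 12 h Acta2 and Des were lower in mean, and Tagln, Cnn1, Smtn and Myh11 higher. The ratio of 3′ to 5′ Gapdh control probe sets, a sign of RNA integrity, was 0.815 ± 0.0438 in TSA cells and 0.866 ± 0.0415 in control cells (SD, n = 10 each, two-sided exact permutation within times, p = 0.00823, adjusted over 6 tests p = 0.0494). The part of these markers and of RNA integrity in the results was not tested. Sirt1 itself, the gene that matches the construct, read 37.5 to 48.7 in Sir2 cells and 9.48 to 20.3 in vector cells at 12 h, and 35.8 to 80.5 in Sir2 cells and 19.6 to 39.4 in vector cells at 36 h, with adjusted p = 0.0316 and 0.106 by limma.

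Intensities below are in array units. Tests are limma fits of log2 intensity across all 7453 probe sets tested in each arm, with a constant added to limit noise at low intensity, which makes changes of dim probe sets smaller. A value after ± is the standard error of a log2 change, and a probe set passed, or was called, when its adjusted p (Benjamini-Hochberg) was under 0.05. In each arm 8 of the 11 member probe sets were bright enough to be tested, covering 6 genes with TSA and 7 with Sir2. Being RNA of whole cultures, the values cannot tell fewer differentiated cells apart from less RNA per cell.

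**Figure D1:**
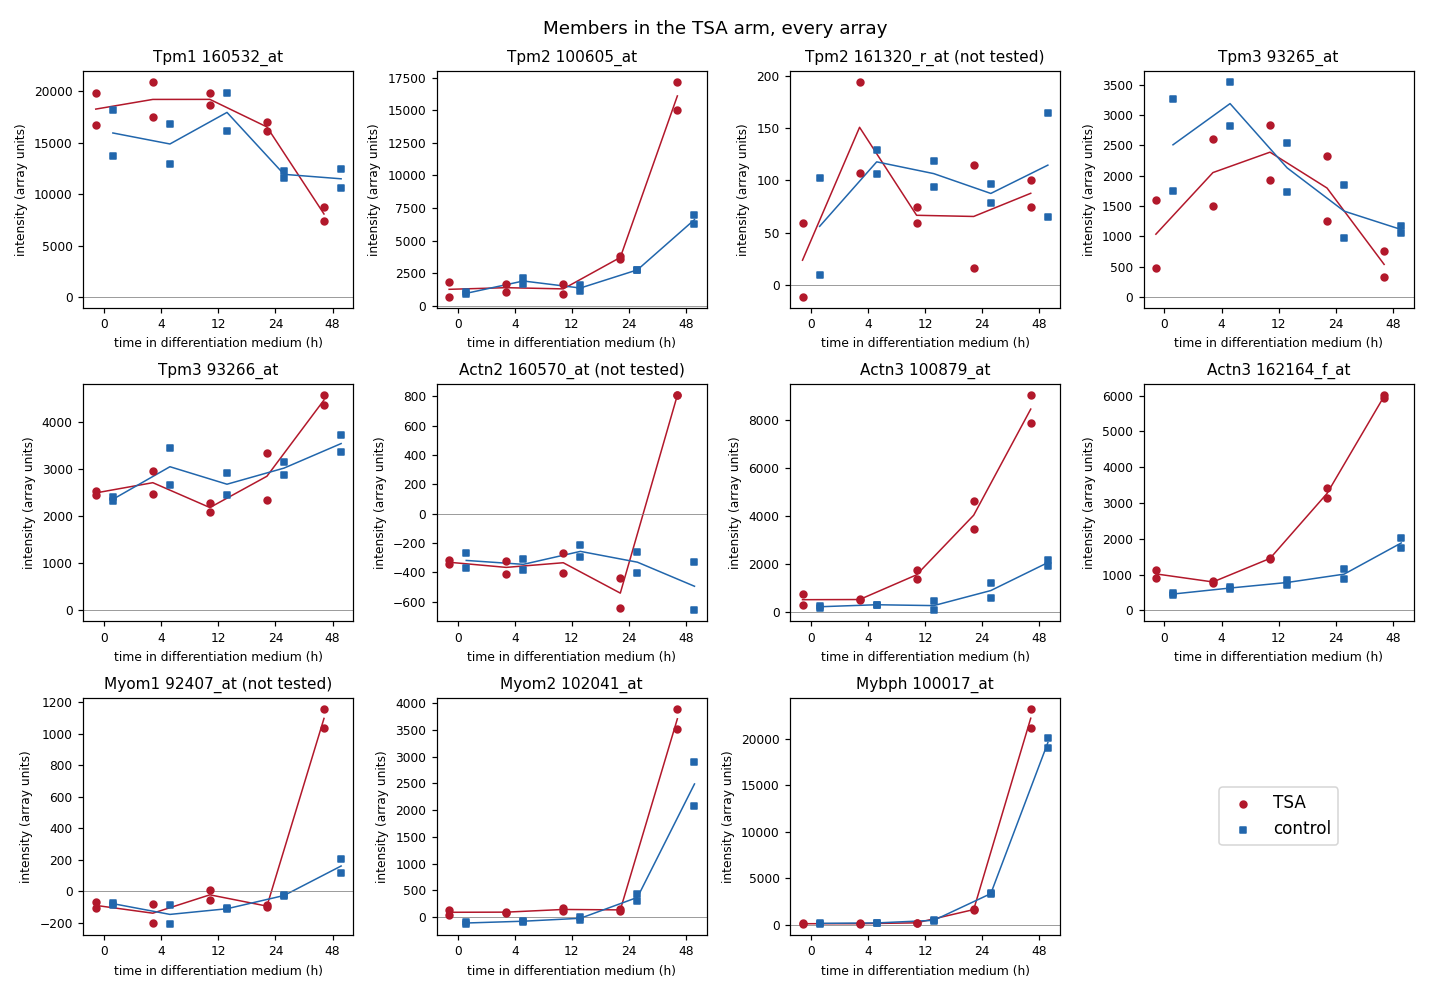
Intensity of each member probe set (linear axis, 1 panel each, own scale) against time in differentiation medium, with TSA arrays as red circles, control arrays as blue squares and lines through the group means. For both Actn3 probe sets the TSA arrays lie above the control arrays at every time, Actn2 is above 0 only in the TSA arrays at 48 h, and Tpm1 is lowest in the TSA arrays at 48 h.

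In control cells, Mybph, Myom2, Actn3 and Tpm2 carried most of the rise of the group with differentiation, with a smaller rise of Tpm3 93266_at at 48 h. Tpm1 stayed bright but read lower at 48 h (10554 to 12419) than at 0 h (13741 to 18146), a change that was not called. No member probe set passed at 4 h against 0 h by limma, where 2.05% of all probe sets did, and 2 of the 8 had an unadjusted p under 0.05. At 12 h 2 of the 8 rose, against a background of 5.23% called and 2.11% higher. At 24 h 4 rose (background 12.9% called, 6.13% higher), and at 48 h 6 rose (35.3% called, 16.0% higher). The median log2 change of the 8 tested member probe sets at 48 h was 2.18, beside 0.01 over all probe sets. In TSA-treated cells the counts were 0 at 4 h (0 with an unadjusted p under 0.05, background 6.00%), 2 higher at 12 h (16.7% called, 8.87% higher), 4 higher at 24 h (16.6% called, 8.95% higher), and 6 higher and 1 lower at 48 h (26.4% called, 12.1% higher, 14.2% lower). The rises at 48 h include both Actn3 probe sets, and Myom2, which was bright enough to be tested only through its arrays of 48 h.

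Set against control cells of the same time, TSA-treated cells had more Actn3 from 12 h on by both of its probe sets (and at 0 h by 1), less Mybph at 12 and 24 h, and more Tpm2 at 48 h. At 0 h 2 of the 8 member probe sets were higher with TSA (17.9% of all probe sets were called, 7.90% higher), and at 4 h 1 was higher (11.4% called, 5.61% higher). At 12 h 3 were higher and 1 lower (4.08% called, 2.56% higher, 1.52% lower). At 24 h 2 were higher and 2 lower (5.94% called, 2.67% higher, 3.27% lower), and at 48 h 3 were higher (19.6% called, 10.5% higher). For the mean over the times 3 were higher and 1 lower (22.0% called, 10.2% higher, 11.9% lower). These are 14 calls in 40 tests, and when a fit held only the 4 arrays of a time, 1 of them passed, that of Actn3 162164_f_at at 0 h. The 2 probe sets of Actn3, with r = 0.976 over the group means, are counted separately. Both higher calls at 24 h are theirs, so the counts are of probe sets and not of separate genes.

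**Figure D2:**
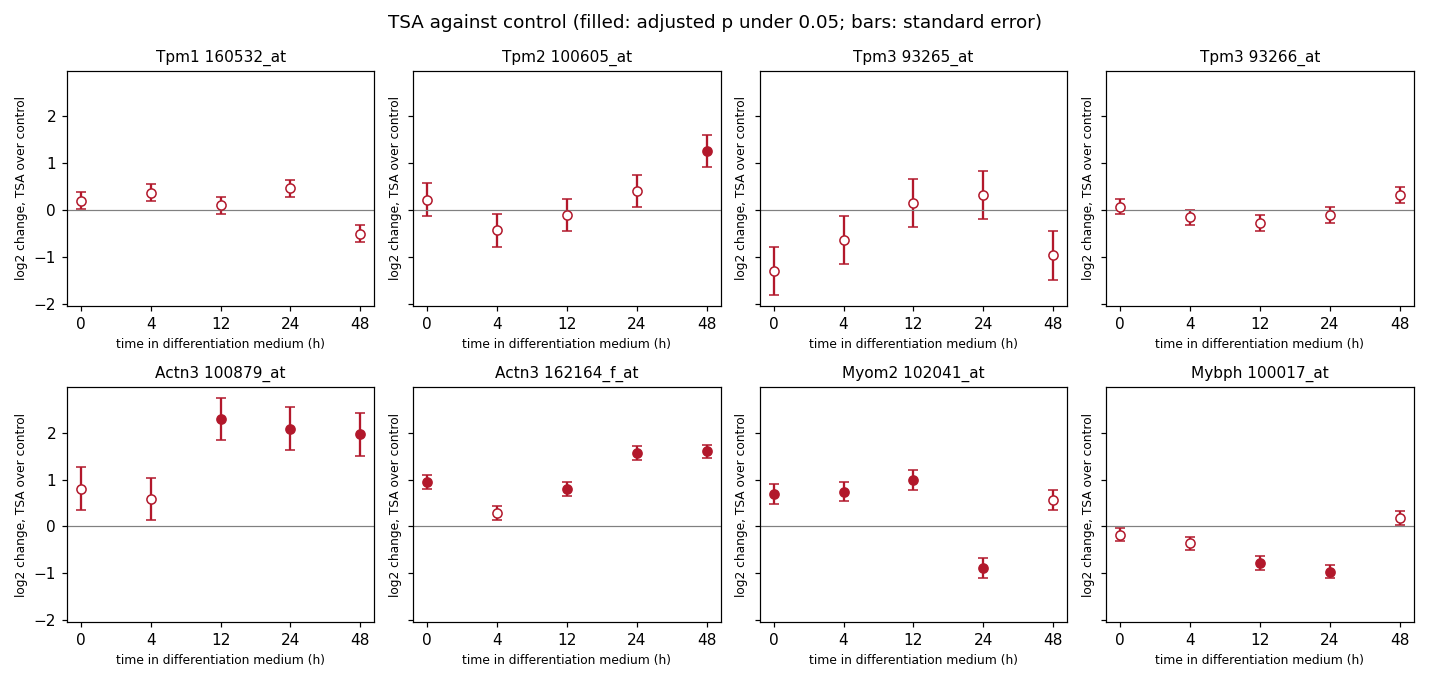
Log2 change of TSA over control cells (y axis, shared) at each time in differentiation medium (x axis) for the 8 member probe sets tested, with standard errors, and filled points where adjusted p was under 0.05. Actn3 100879_at lies near 2 from 12 h on, Mybph is lowest at 24 h with -0.97 and returns to 0.18 at 48 h, and Tpm2 is called at 48 h alone.

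Actn3, the alpha-actinin of fast muscle fibres that cross-links actin at the Z-disc, was higher with TSA at 12, 24 and 48 h by both of its probe sets. Probe set 100879_at read 287 and 723 in TSA cells against 177 and 243 in control cells at 0 h, and 478 and 545 in TSA cells against 286 and 303 in control cells at 4 h. At 12 h it read 1736 and 1352 in TSA cells against 459 and 57 in control cells, and at 24 h 3449 and 4609.9 in TSA cells against 557 and 1215 in control cells. At 48 h it read 7872 and 9044 in TSA cells against 2177 and 1931 in control cells. The TSA arrays lay above the control arrays at every time, and TSA cells at 24 h were already above control cells at 48 h. The log2 change with TSA was 2.29 ± 0.46 at 12 h (adjusted p = 0.0129), 2.09 ± 0.46 at 24 h (adjusted p = 0.0172) and 1.97 ± 0.46 at 48 h (adjusted p = 0.00924), or 5.98-, 4.55- and 4.12-fold in mean intensity. The size at 12 h rested on the control arrays, at 459 and 57: it was 3.10 without control replicate 1 and 1.49 without control replicate 2. The changes of 0.80 at 0 h and 0.59 at 4 h did not pass (adjusted p = 0.280 and 0.487). Leaving out TSA replicate 1 (adjusted p = 0.110) or 2 (0.0640) or control replicate 2 (0.120) ended the call at 12 h. The call at 24 h was lost without TSA replicate 2 (0.0535) or 3 (0.118) or control replicate 2 (0.142), and the call at 48 h without TSA replicate 2 (0.0565). The mean over the times was 1.55 ± 0.20 (adjusted p = 0.000153).

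The second Actn3 probe set, 162164_f_at, moved the same way with a smaller standard error, although its suffix marks a design that may also match related sequences, so that it is uncertain which transcripts it reads. It read 898 and 1142 in TSA cells against 438 and 477 in control cells at 0 h, and 828 and 762 in TSA cells against 665 and 585 in control cells at 4 h. At 12 h it read 1456 and 1446 in TSA cells against 699 and 861 in control cells. At 24 h the TSA cells read 3127 and 3406 and the control cells 1149 and 878, and at 48 h the TSA cells read 5945 and 6014 and the control cells 1756 and 2011. The groups did not overlap at any time. Its log2 change was 0.95 ± 0.15 at 0 h (adjusted p = 0.000664), 0.29 ± 0.15 at 4 h (adjusted p = 0.260), 0.80 ± 0.15 at 12 h (adjusted p = 0.00796), 1.57 ± 0.15 at 24 h (adjusted p = 5.01e-05) and 1.60 ± 0.15 at 48 h (adjusted p = 1.48e-05). Without TSA replicate 1 or 2 or control replicate 1 the call at 12 h was lost (adjusted p = 0.0640, 0.0651 and 0.0665). The mean over the times was 1.04 ± 0.07 (adjusted p = 3.92e-07). The size of the effect differed between times for this probe set (F test, adjusted p = 0.00239), but not past the threshold for 100879_at (adjusted p = 0.158, and 0.0195 without control replicate 1 at 12 h).

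Over time, Actn3 100879_at rose by a log2 change of 3.83 ± 0.46 in TSA-treated cells (adjusted p = 4.59e-05) and 2.66 ± 0.46 in control cells (adjusted p = 0.000612) at 48 h against 0 h, and 162164_f_at by 2.41 ± 0.15 in TSA-treated cells (adjusted p = 1.13e-07) and 1.76 ± 0.15 in control cells (adjusted p = 1.59e-06). In TSA-treated cells both had risen by 24 h, by 2.77 and 1.56. The calls of TSA-treated cells at 12 h, 1.47 (adjusted p = 0.0445) and 0.47 (adjusted p = 0.0484), were close to the threshold: they were lost in 15 and 13 of the 20 fits that left out 1 array, with adjusted p up to 0.327 and 0.333 without TSA replicate 1 at 0 h. Both held without TSA replicate 2 at 0 h or any 1 control array of 12 or 24 h, and the second also without either control array of 48 h. In control cells 162164_f_at rose by 0.62 at 12 h (adjusted p = 0.0323) and by 0.94 at 24 h (adjusted p = 0.00117). The first of these was lost without control replicate 1 (0.169) or 2 (0.127) at 0 h or 2 (0.241) at 12 h. For 100879_at, the control change of 1.49 at 24 h had adjusted p = 0.0508. It passed with the added constant doubled (0.0377), the 60th percentile filter (0.0320) and trend and robust variance (0.0376). It also passed without either TSA array at 0 h (0.0430 each) or control array at 12 h (0.0136 each), and without control replicate 2 at 24 h (0.0393).

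Actn2, the alpha-actinin of all striated muscle fibres, was too dim to be tested in the TSA arm. Probe set 160570_at read below 0, the level of background, on 18 of 20 arrays, and the exceptions were both TSA arrays at 48 h, with 808 and 806 in TSA cells against -331 and -659.9 in control cells. These 2 arrays were set apart from every other array of the arm. Since all other groups were at or below 0, no fold is given.

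Myom2, or M-protein, which bridges thick filaments at the M-band and is known from fast fibres, was at background in growing control cells. Probe set 102041_at read 44.4 and 136 in TSA cells against -127 and -92.6 in control cells at 0 h, and 104 and 82 in TSA cells against -66.6 and -86.5 in control cells at 4 h. At 12 h it read 179.6 and 106 in TSA cells against 4.1 and -47.3 in control cells. At 24 h it read 151 and 119 in TSA cells against 437 and 301 in control cells, and at 48 h 3897 and 3512 in TSA cells against 2073 and 2902 in control cells. TSA arrays were above control arrays at 0, 4, 12 and 48 h and below them at 24 h, without overlap. The calls at 0 h (0.70 ± 0.21, adjusted p = 0.0362), 4 h (0.74 ± 0.21, adjusted p = 0.0393) and 12 h (0.99 ± 0.21, adjusted p = 0.0173) lie near background, and with all control arrays at or below 0 at 0 and 4 h their p can be too small. Doubling the added constant ended all 3 (adjusted p = 0.116, 0.123 and 0.0649). No filter on dim probe sets (0.0582 and 0.0584) and trend and robust variance (0.0670 and 0.0690) ended those at 0 and 4 h. All 3 were lost on leaving out any 1 array of the pair of groups except TSA replicate 1 at 0 h and TSA replicate 2 at 12 h (adjusted p up to 0.310). The call at 4 h was lost as well without either control array at 0 or 12 h (adjusted p up to 0.0549).

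At 24 h Myom2 was lower with TSA by a log2 change of -0.88 ± 0.21 (adjusted p = 0.0267), a call lost without TSA replicate 2 (0.0763) or 3 (0.157) or control replicate 2 (0.183). At 48 h the difference was 0.57 ± 0.21 and did not pass (adjusted p = 0.0802). It passed with the added constant doubled (0.0323), with the letter b in a title as a covariate (0.0437) and without control replicate 2 at 48 h (0.0442). The effect of TSA on Myom2 differed between times (F test, adjusted p = 0.00344). Its mean over the times was 0.42 ± 0.09 (adjusted p = 0.00568), which averages gains near background with the fall at 24 h. Control arrays at 0 and 4 h, all set to 0, have no spread and enter the estimate used for every Myom2 test of the arm. All p-values of Myom2 in this arm can thus be too small. Fitted on the arrays of 24 h alone by limma, the fall at 24 h had adjusted p = 0.235. At 48 h against 0 h Myom2 rose in both treatments (adjusted p = 2.03e-08 in TSA-treated cells and 1.49e-08 in control cells). Without its arrays of 48 h it would have been too dim to be tested. With control cells below 0 at 0 h, the size of the fitted log2 change depended on the added constant. It lay between 3.45 and 4.63 in TSA-treated cells and between 3.31 and 5.20 in control cells over the alternatives, so the 2 are not compared. At 24 h it rose in control cells (adjusted p = 0.000119, fitted log2 change 1.22 to 2.65 over the alternatives), while 0.29 in TSA-treated cells did not pass (adjusted p = 0.417).

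Myom1, the myomesin of all striated muscle, was also too dim to be tested in the TSA arm. Probe set 92407_at read 1159.6 and 1034 in TSA cells at 48 h against 205 and 117 in control cells, and between -207 and 9.7 on the 16 arrays of earlier times. The 2 TSA arrays at 48 h were thus far above the control arrays, and the control arrays at 48 h were above all earlier ones. With no filter on dim probe sets, the log2 change at 48 h was 2.06 ± 0.10 (adjusted p = 5.47e-07), a p that can be too small since most groups were at or below 0 throughout.

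Mybph, a relative of myosin-binding protein C that sits on the thick filament, had the largest fitted changes over time of the tested members of the TSA arm. Probe set 100017_at read 120.3 and 167 in TSA cells against 212 and 151 in control cells at 0 h, and 168 and 125 in TSA cells against 243 and 211 in control cells at 4 h. At 12 h it read 205 and 268 in TSA cells against 466 and 543 in control cells. At 24 h it read 1596 and 1728 in TSA cells against 3394 and 3358 in control cells, and at 48 h 23258 and 21179.7 in TSA cells against 19069.6 and 20129.6 in control cells. TSA arrays were below control arrays at 4, 12 and 24 h and above them at 48 h, and the groups overlapped at 0 h. The log2 change with TSA was -0.78 ± 0.14 at 12 h (adjusted p = 0.00707) and -0.97 ± 0.14 at 24 h (adjusted p = 0.00132), or 0.469 and 0.492 times the control mean. At 0, 4 and 48 h it was -0.18, -0.36 and 0.18 and did not pass (adjusted p = 0.466, 0.132 and 0.420). Leaving out TSA replicate 1 (0.0950) or control replicate 2 (0.0836) ended the call at 12 h, and no omission ended that at 24 h. The effect differed between times (F test, adjusted p = 0.00639), with a mean of -0.42 ± 0.06 (adjusted p = 0.000398). From 0 to 48 h Mybph rose by a log2 change of 6.32 ± 0.14 in TSA-treated cells (adjusted p = 5.36e-12) and 5.96 ± 0.14 in control cells (adjusted p = 2.07e-11), or 155- and 108-fold. At 12 h the rise was 0.41 in TSA-treated cells (adjusted p = 0.0690, and 0.0407 with the 60th percentile filter) and 1.01 in control cells (adjusted p = 0.00201), and at 24 h it was 2.68 in TSA-treated cells (adjusted p = 2.34e-07) and 3.47 in control cells (adjusted p = 1.28e-08).

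Tpm2, the beta-tropomyosin found in slow and fast fibres, was the thin filament member with a TSA call. Probe set 100605_at read 704 and 1868 in TSA cells against 896 and 1063 in control cells at 0 h, and 1109 and 1715 in TSA cells against 2164 and 1684 in control cells at 4 h. At 12 h it read 938 and 1701 in TSA cells against 1589 and 1182 in control cells. At 24 h it read 3631 and 3822 in TSA cells against 2784 and 2768 in control cells, and at 48 h 14988 and 17192 in TSA cells against 6949.7 and 6292 in control cells. The groups overlapped up to 12 h, and TSA arrays were higher at 24 and 48 h. The log2 change was 1.26 ± 0.35 at 48 h (adjusted p = 0.0236), or 2.43-fold, and it passed at no other time (adjusted p between 0.509 and 0.942). The call was lost without any 1 of the 4 arrays at 48 h (TSA replicate 1, 0.0598; TSA replicate 2, 0.114; control replicate 1, 0.0629; control replicate 2, 0.0961). The mean over the times was 0.27 ± 0.16 (adjusted p = 0.252, and 0.0369 without TSA replicate 1 at 0 h, which read 704 beside 1868). The F test gave adjusted p = 0.130, and 0.0314 and 0.0268 without TSA replicate 1 or 2 at 0 h.

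At 48 h against 0 h Tpm2 rose by 3.64 ± 0.35 in TSA-treated cells (adjusted p = 7.46e-06) and 2.60 ± 0.35 in control cells (adjusted p = 8.89e-05), or 12.5-fold in TSA-treated cells and 6.76-fold in control cells. The first of these log2 changes was 3.01 without TSA replicate 1 and 4.27 without TSA replicate 2 at 0 h. At 24 h it rose by 1.57 in TSA-treated cells (adjusted p = 0.00818) and 1.39 in control cells (adjusted p = 0.0199). The call of TSA-treated cells at 24 h was lost without TSA replicate 1 at 0 h (0.95, adjusted p = 0.0854) or 3 at 24 h (0.0515), and the change was 2.20 without TSA replicate 2 at 0 h. The call of control cells was lost without control replicate 1 (0.126) or 2 (0.0723) at 0 h or 2 (0.0754) or 3 (0.0961) at 24 h. The other Tpm2 probe set, 161320_r_at, was not tested. It read between -11.6 and 195 with TSA or its control and between 3.61 and 30.4 with pHan, and did not follow 100605_at.

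Tpm1, the gene of alpha-tropomyosin, makes striated muscle forms as well as forms of smooth muscle and non-muscle cells, and which of them probe set 160532_at reads was not examined. It read 16739.9 and 19790.0 in TSA cells against 18146 and 13741 in control cells at 0 h, and 20945 and 17467 in TSA cells against 16835 and 12911 in control cells at 4 h. At 12 h it read 18622 and 19799.7 in TSA cells against 16092 and 19796 in control cells. At 24 h it read 16962 and 16095 in TSA cells against 12286 and 11555 in control cells, and at 48 h 7338 and 8792 in TSA cells against 10554 and 12419 in control cells. The TSA arrays were above the control arrays at 4 and 24 h and below them at 48 h, and the groups overlapped at 0 and 12 h. No difference passed at a single time, the nearest being -0.50 ± 0.18 at 48 h (adjusted p = 0.0735), which passed after quantile normalization (0.0128). The F test gave adjusted p = 0.0752, and it passed after quantile normalization (0.0166), with the 60th percentile filter (0.0469) and with trend and robust variance (0.0444). Over time Tpm1 fell by 1.17 on the log2 scale in TSA-treated cells at 48 h (adjusted p = 0.000421), to 0.442 times its level at 0 h. In control cells the change was -0.46 and did not pass (adjusted p = 0.0694), but it passed after quantile normalization (0.00330), with trend and robust variance (0.0483) and without control replicate 2 at 0 h (0.0402).

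Tpm3, the tropomyosin of slow fibres and of many non-muscle cells, had no TSA call. Probe set 93266_at lay between 2090.2 and 4569 on all arrays of the arm, with 4569 and 4359 in TSA cells and 3711 and 3368 in control cells at 48 h. Those 4 arrays were the highest of the 20 but for control replicate 1 at 4 h, which read 3438. It rose by 0.81 ± 0.17 in TSA-treated cells (adjusted p = 0.00345) and by 0.56 ± 0.17 in control cells (adjusted p = 0.0216) at 48 h against 0 h, and the second call was lost without control replicate 1 (0.0979) or 2 (0.0711) at 0 h or 1 (0.104) at 48 h. Probe set 93265_at spread widely between replicates, from 322 to 3556, with 752 and 322 in TSA cells and 1059 and 1165 in control cells at 48 h. Its changes at 48 h against 0 h, -0.69 in TSA-treated cells and -1.02 in control cells, did not pass (adjusted p = 0.386 and 0.148), so the 2 Tpm3 probe sets disagreed in sign and the rise of 93266_at alone passed. Without TSA replicate 1 at 0 h, the TSA difference of 93265_at at 0 h passed (-2.05, adjusted p = 0.0300), as did its mean over the times (0.0497) and the change of TSA-treated cells at 12 h against 0 h (0.0362).

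The F test of whether the TSA effect differed between times called 3 of the 8 member probe sets, of Actn3, Myom2 and Mybph, where 22.2% of all probe sets were called. Ordered by group mean, Mybph, Myom2, Tpm2 100605_at and both Actn3 probe sets were each highest in TSA cells at 48 h. Next below came control cells at 48 h for Mybph, Myom2 and Tpm2, but TSA cells at 24 h for Actn3, and in none of these did the top groups overlap. For Tpm1 the same TSA cells at 48 h were lowest, without overlap with control cells at 48 h, and all groups from 0 to 12 h overlapped with a neighbour.

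**Figure D3:**
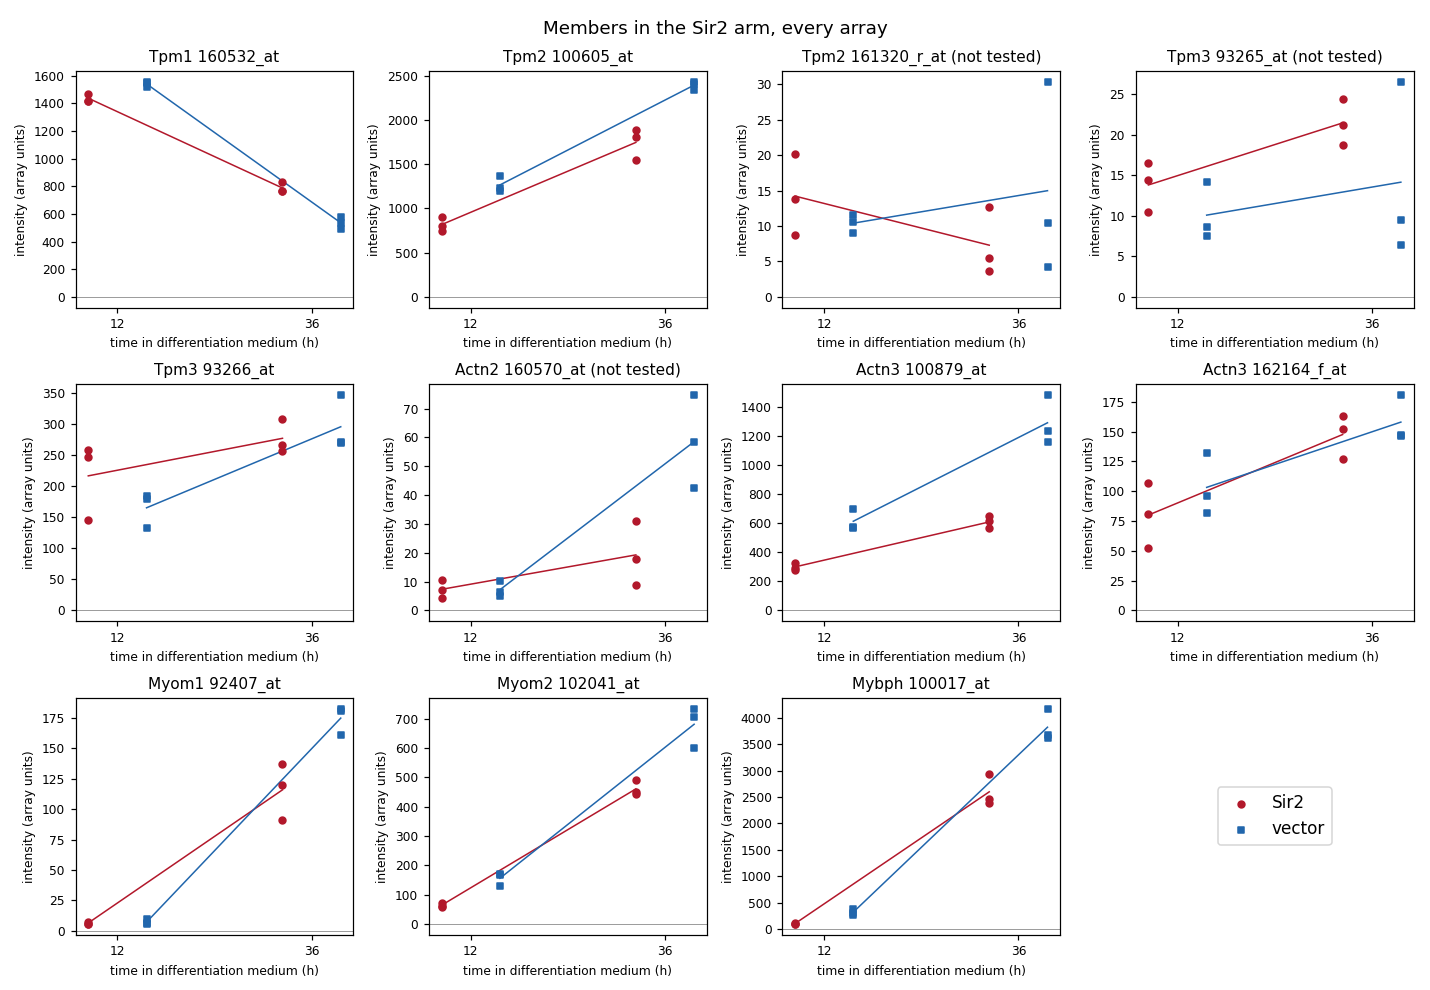
Intensity of each member probe set (linear axis, own scale) at 12 and 36 h in differentiation medium, with Sir2 arrays as red circles to the left of vector arrays as blue squares, 3 arrays per group and lines through the group means. Sir2 arrays lie below vector arrays at both times for Mybph, Myom2, Tpm2 100605_at and Actn3 100879_at, and above them at 36 h for Tpm1.

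Sir2 cells had less Mybph, Myom2, Tpm2 and Actn3 (by probe set 100879_at but not by 162164_f_at) than vector cells at both times. They had less Myom1 at 36 h, while Tpm1 was higher in them at 36 h. At 12 h 4 of the 8 member probe sets tested were lower (5.55% of all probe sets were called, 2.78% lower). At 36 h 5 were lower and 1 higher (9.26% called, 3.22% lower, 6.04% higher). The median log2 change of the 8 was -0.49 at 12 h and -0.51 at 36 h, beside 0.02 and -0.02 over all probe sets. Leaving out 1 array of 36 h gave 6 to 8 calls in the 16 tests instead of 10, with 6 without Sir2 replicate a or vector replicate c, and the Sirt1 probe set itself did not pass at 36 h.

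Actn3 100879_at read 328, 293 and 276 in Sir2 cells against 568, 573 and 697 in vector cells at 12 h, and 613, 565 and 647 in Sir2 cells against 1155, 1480.1 and 1233 in vector cells at 36 h. All Sir2 arrays were below all vector arrays at each time, and Sir2 cells at 36 h overlapped with vector cells at 12 h. The log2 change was -1.01 ± 0.13 at 12 h (adjusted p = 0.000860) and -1.07 ± 0.13 at 36 h (adjusted p = 0.000356), or 0.488 and 0.472 times the vector mean, and no alternative ended either call. Actn3 162164_f_at did not show this: it read 52.2 to 107 in Sir2 cells and 81.4 to 132 in vector cells at 12 h, and 127 to 163 in Sir2 cells and 146 to 181 in vector cells at 36 h, overlapping at both times (changes -0.36 and -0.09, adjusted p = 0.453 and 0.842). Actn2 160570_at, not tested, read 7.19, 10.6 and 4.15 in Sir2 cells and 6.53, 4.86 and 10.1 in vector cells at 12 h. At 36 h it read 30.9, 18 and 8.87 in Sir2 cells against 74.7, 42.6 and 58.3 in vector cells, without overlap (with no filter on dim probe sets, change -1.31, adjusted p = 0.0264).

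At the M-band, Myom2 read 61.8, 58.7 and 71.1 in Sir2 cells against 129, 172 and 166 in vector cells at 12 h, and 442, 489.8 and 449 in Sir2 cells against 735, 601 and 707 in vector cells at 36 h. The Sir2 arrays were below the vector arrays at both times. Its log2 change was -1.17 ± 0.13 at 12 h (adjusted p = 0.000323) and -0.55 ± 0.13 at 36 h (adjusted p = 0.0212), and the second was lost without Sir2 replicate a (0.0741) or c (0.0636) or vector replicate a (0.0810) or c (0.0739). Myom1 was at background at 12 h, with 5.96, 7.69 and 5.85 in Sir2 cells and 9.77, 6.09 and 5.72 in vector cells. At 36 h it read 90.7, 119.8 and 137 in Sir2 cells against 183, 161 and 181 in vector cells. These did not overlap. The change of -0.57 ± 0.15 (adjusted p = 0.0328) was lost without Sir2 replicate a (0.116) or b (0.0636) or vector replicate a (0.102), b (0.0540) or c (0.0996). It was also lost with trend and robust variance (0.0980), median centring (0.0541) and no filter on dim probe sets (0.0694), and when only the arrays of 36 h were fitted (0.0750).

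Mybph on the thick filament showed the greatest difference of the 8 tested probe sets at 12 h. It read 96, 109 and 102 in Sir2 cells against 274, 312 and 371 in vector cells at 12 h, and 2459.8, 2395 and 2944 in Sir2 cells against 3613, 4178 and 3682 in vector cells at 36 h. The groups did not overlap at either time. The log2 change was -1.55 ± 0.13 at 12 h (adjusted p = 3.01e-05) and -0.56 ± 0.13 at 36 h (adjusted p = 0.0207), or 0.320 and 0.680 times the vector mean. The call at 36 h was lost without Sir2 replicate a (0.0751) or b (0.0727) or vector replicate b (0.0782) or c (0.0513). The difference between these effects was 0.995 ± 0.19 (adjusted p = 0.0256). Of the 8 member probe sets 2 passed this test, both higher, where 1.76% of all probe sets were called and 1.27% were higher. The Mybph call was lost in 7 of the 12 fits that left out 1 array, with adjusted p up to 0.0650 (Sir2 replicates a and b and vector replicate c at 12 h, Sir2 replicates a and c and vector replicates a and c at 36 h).

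Among the tropomyosins, Tpm2 100605_at read 744, 804 and 905 in Sir2 cells against 1233, 1364 and 1201 in vector cells at 12 h, and 1544, 1893 and 1804 in Sir2 cells against 2435, 2338 and 2412 in vector cells at 36 h. Its Sir2 arrays were below its vector arrays at each time. The log2 change was -0.63 ± 0.11 at 12 h (adjusted p = 0.00753) and -0.46 ± 0.11 at 36 h (adjusted p = 0.0269). The call at 36 h was lost without Sir2 replicate a (0.108) or c (0.0542) or any vector replicate (a, 0.0810; b, 0.0624; c, 0.0790). It was also lost after median centring (0.0806), with no filter on dim probe sets (0.0593) and when only the arrays of 36 h were fitted (0.0632). Tpm1 read 1420.3, 1421 and 1471 in Sir2 cells against 1517, 1548 and 1558 in vector cells at 12 h, which did not pass (-0.10 ± 0.10, adjusted p = 0.667). At 36 h it read 769, 829.8 and 765 in Sir2 cells against 493, 579 and 537 in vector cells, which was higher by 0.55 ± 0.10 (adjusted p = 0.00364), or 1.47-fold, and no alternative ended this call. The effects at the 2 times differed by 0.65 ± 0.14 (adjusted p = 0.0353), a call lost in 11 of the 12 fits that left out 1 array, all but that without vector replicate b at 36 h (adjusted p up to 0.0907). Tpm3 93266_at read 146 to 259 in Sir2 cells and 133 to 185 in vector cells at 12 h, and 257 to 309 in Sir2 cells and 269.8 to 347 in vector cells at 36 h, with no call, and 93265_at was not tested, at 6.45 to 26.6 on all 12 arrays.

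**Figure D4:**
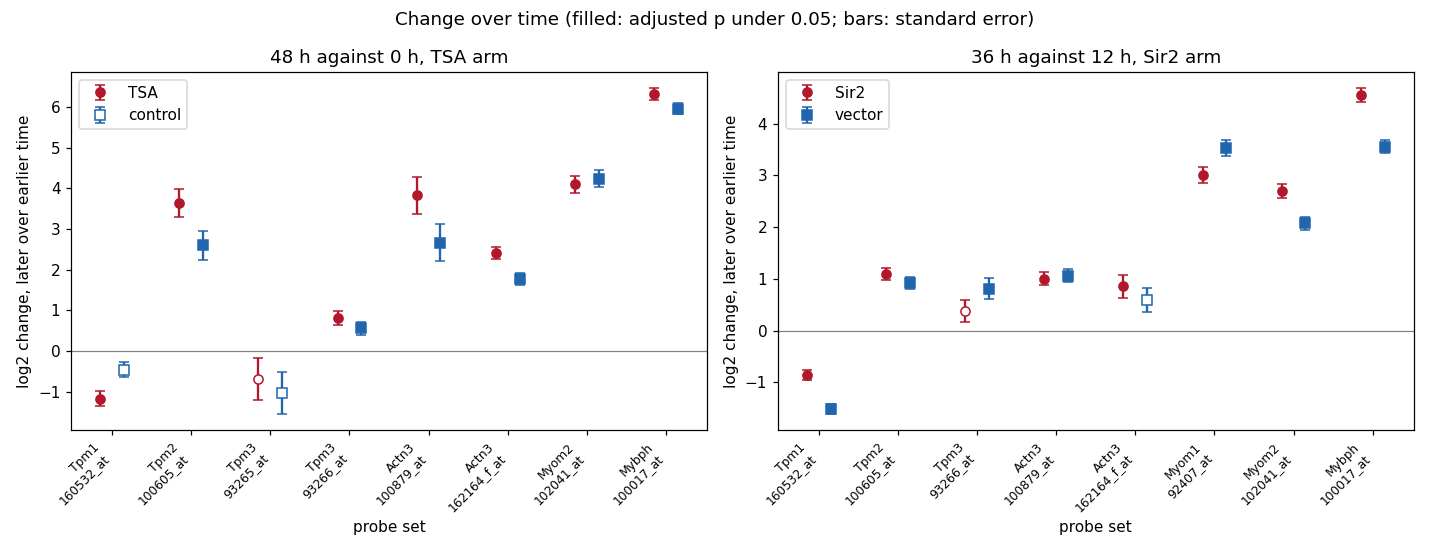
Log2 change of the later over the earlier time (y axis) with standard errors for each tested member probe set (x axis), on the left 48 h against 0 h in TSA-treated cells (red circles) and control cells (blue squares), on the right 36 h against 12 h in Sir2 cells (red circles) and vector cells (blue squares), filled where adjusted p was under 0.05. Mybph has the largest change on the left, Tpm1 lies below 0 in all 4 series, and the heights of Myom2 on the left and Myom1 on the right depend on the added constant.

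In Sir2 cells between 12 and 36 h 6 of the 8 rose and 1 fell (28.5% of all probe sets were called, 11.7% higher, 16.9% lower), and in vector cells 6 rose and 1 fell (32.1% called, 12.4% higher, 19.7% lower), but not all of the same probe sets. Mybph rose by a log2 change of 4.55 ± 0.13 in Sir2 cells (adjusted p = 4.88e-10) and 3.55 ± 0.13 in vector cells (adjusted p = 1.19e-08), and Tpm1 fell by 0.86 in Sir2 cells (adjusted p = 3.21e-05) and by 1.51 in vector cells (adjusted p = 3.55e-07). For these 2 genes the change differed between Sir2 and vector cells, by the test of the Sir2 effects given above. Myom1 rose in both and is counted above. It was bright enough to be tested only through its arrays of 36 h, so the filter itself favoured this rise. Since it was at background at 12 h, its fitted log2 change depended on the added constant and lay between 2.45 and 3.45 in Sir2 cells and between 2.96 and 3.96 in vector cells over the alternatives. Myom2 rose by 2.69 in Sir2 cells and 2.07 in vector cells. For Tpm2 the rise was 1.09 in Sir2 cells and 0.92 in vector cells, and for Actn3 100879_at it was 1.003 in Sir2 cells and 1.06 in vector cells. Actn3 162164_f_at passed in Sir2 cells (0.86, adjusted p = 0.0124) and not in vector cells (0.59, adjusted p = 0.0609). The vector change passed in 8 alternatives, with adjusted p down to 0.0252 without Sir2 replicate c at 12 h. Tpm3 93266_at passed in vector cells (0.81, adjusted p = 0.0101) and not in Sir2 cells (0.38, adjusted p = 0.197). The difference between Sir2 and vector cells passed its own test for neither of these 2 probe sets (adjusted p = 0.748 and 0.531).

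For each member with a range of at least 1 between its group means on the log2 scale, the 2 genes most like it were sought by Pearson's r over the 10 group means of the TSA arm, given here as a description, since groups share times and arrays share scaling. Mybph was followed most closely by Tnnc1, slow troponin C (r = 0.995, and 0.999 over the 4 group means of the Sir2 arm), and Chrng, the fetal gamma subunit of the acetylcholine receptor (0.988 and 0.994). For Actn2 and Myom1 no likeness is given, since most of their TSA-arm groups lie at or below 0 and r would rest on TSA cells at 48 h. Myom2 went with Cav3, muscle caveolin (0.981 and 0.970), and Pkia, a protein kinase A inhibitor (0.973 and 0.982). Its other TSA-arm groups being at or near background, r rests largely on control cells at 24 h and both groups of 48 h. Nearest to Tpm2 were Mylpf, the fast regulatory light chain (0.977 and 0.942), and Sgca, a sarcoglycan (0.976 and 0.984). Nearest to Actn3 were Pdlim4, a protein with PDZ and LIM domains (0.967 and 0.822), and Emc3 (0.940 and 0.989). Tpm1 went with Basp1 (0.971 and 0.933) and 1810044D09Rik (0.961), but the second gave -0.985 in the Sir2 arm. Between members, Tpm1 had r = -0.891 with Tpm2 100605_at and -0.883 with Mybph, and the Actn3 probe sets had r = 0.976 with each other.

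Other genes of the same structures were counted from lists that leave out the members. Of 9 tested thin filament genes, all 9 rose at 48 h against 0 h (background 12.1% higher in TSA-treated and 16.0% in control cells), with a median log2 change of 5.97 in TSA-treated cells and 4.82 in control cells, among them in control cells the actin Acta1 (6.71) and Tnnc1 (6.97), adjusted p = 1.97e-09 and 1.21e-09. Mean Acta1 (61.4) and Tnnc1 (49.1) of control cells at 0 h lay below the added constant of 137.7, so the sizes of these changes depend on it. Genes dim at 0 h could pass the filter through later arrays, which favours rises in such a list. With TSA, 5 of the 9 were lower at 24 h (median -1.12, background 3.27% lower) and 4 were higher at 48 h (median 0.73, background 10.5% higher), and whether the effects of the 2 times differ was not tested for this list. With Sir2, 8 of 10 were lower at 12 h (median -1.17, background 2.78% lower) and 4 at 36 h (median -0.42, background 3.22% lower), such as Tnnt3, fast troponin T (-0.75, adjusted p = 0.00395). Of 8 tested myosin chain genes, 5 were higher with TSA at 48 h (median 1.03, background 10.5% higher). With Sir2 at 36 h 6 of the 8 were lower (median -0.93, background 3.22% lower), with Myh3, embryonic myosin heavy chain, at -0.98 (adjusted p = 0.000156) and Myh1 at -1.35 (adjusted p = 0.000307).

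Of 14 tested Z-disc genes, 3 rose and 3 fell in control cells at 48 h, shares near the background of 16.0% higher and 19.3% lower, with Ankrd2, a stretch-responsive ankyrin repeat protein, at 2.25 (adjusted p = 5.11e-05) and the capping subunit Capzb at -1.04 (adjusted p = 0.000293). With TSA 3 of the 14 were higher at 24 h (background 2.67%) and 6 at 48 h (median 0.39, background 10.5%). With Sir2 at 36 h 3 of 16 were lower (background 3.22%) and 2 higher (background 6.04%). The lower ones were Cryab (-0.90, adjusted p = 0.00158) and Csrp3 and Ldb3, muscle LIM and PDZ-LIM proteins, at -1.01 (adjusted p = 0.0146) and -1.17 (adjusted p = 0.0203). Among the higher ones was Fhl1 (0.47, adjusted p = 0.0207). Only 4 other M-band and thick filament genes were tested with TSA and 3 with Sir2. In control cells at 48 h Ckm, muscle creatine kinase (1.85, adjusted p = 5.23e-06), and the ankyrin Ank1 (1.76, adjusted p = 6.09e-05) rose, Fhl2 fell (-0.66, adjusted p = 0.00149) and Mybpc3 did not pass (0.20, adjusted p = 0.505). Mean Ckm of control cells at 0 h was 8.57, so the size of its rise depends on the added constant. With Sir2 at 36 h Ckm was lower (-0.95, adjusted p = 0.0328), while Fhl2 (0.08, adjusted p = 0.680) and Ank1 (-0.04, adjusted p = 0.926) did not pass. Among non-muscle actin genes 6 of 9 fell in control cells at 48 h (median -0.53, background 19.3% lower), with Tpm4, the non-muscle tropomyosin, at -1.88 (adjusted p = 5.26e-07) and Actn1, the non-muscle alpha-actinin, at -0.76 (adjusted p = 4.58e-05). With Sir2 at 36 h 4 of 9 were higher (background 6.04%), namely Tmod3 (0.73, adjusted p = 0.00271), Tpm4 (0.46, adjusted p = 0.0137), Myh9 (0.50, adjusted p = 0.0473) and Actn1 (0.37, adjusted p = 0.0354). With TSA at 48 h 3 of the 9 were higher and 1 lower (background 10.5% higher and 9.10% lower). Over all tested probe sets the median log2 change of the comparisons with a list median here lay between -0.03 and 0.02.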

How the data were processed

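RNA of C2C12 cells was measured on 32 arrays of 1 Affymetrix design, whose groups follow the treatment and time in their labels. The deposited values were linear intensities, 1 per probe set and array. Those of the Sir2 arm came from MAS5, with no version stated, per the submitters' processing notes. For the TSA arm the software is not given in the sources read here, and 21.1% to 24.2% of its values per array are at or below 0, against 0% in the Sir2 arm. The mean of the central values per array was 801 on every TSA-arm array and 150.1 on every Sir2-arm array, so arrays had been scaled within each arm. Precision is limited by the number of arrays.

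The table holds 12488 probe sets, and its 66 Affymetrix controls stayed out. Symbols came from the platform annotation, updated through Entrez identifiers (GRCm38.p6 table): 10833 probe sets have 1 symbol, 396 several and 1193 none, and none of the 396 includes a member. Negative TSA-arm values were set to 0. The constant added before log2 was 137.7 for TSA-arm values, their 40th percentile, and 8.82 for Sir2-arm values, their 20th, because the planned 20th percentile is below 0 in the TSA arm. Probe sets with a mean over all arrays of the arm of at least the 40th percentile of means (144.9 and 31.1) were tested. Those bright at late times alone, such as Myom2 with TSA and Myom1 with Sir2, entered through these times. Linear models were fitted per arm by limma 3.58.1 under R 4.3.3, each group having its own mean, 10 and 8 residual degrees of freedom, and adjusted p-values by Benjamini-Hochberg over all tested probe sets of a comparison. The fit was tested on simulated data. A gene of a list is represented by its probe set of highest mean. Figures used matplotlib 3.10.9 under Python 3.11.15.

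Members, lists and tests were chosen with earlier results of these data known. Named genes were every member probe set, up to 4 genes per list with the smallest p in control cells at 48 h against 0 h or Sir2 against vector at 36 h, of which not all are printed, and the 2 genes of highest r per member, except Actn2 and Myom1. Alternatives were quantile normalization, median centring, other constants and filters, trend and robust variance, the replicate block, the letter b in a title as a covariate, fits that hold the compared groups alone, and leaving out each array. Adipocyte and cardiac markers were also listed: at 48 h the adipocyte list (3 genes) summed to 646 to 887 in TSA cells and 1165 to 1370 in control cells, and the cardiac list (6 genes) to 953 to 1422 in TSA cells and 1107 to 1694 in control cells, with Nkx2-5 at or below 0 in both. The adipocyte sum was mostly Lep (mean 650 in TSA cells and 1024 in control cells), with Adipoq and Fabp4 dim. The cardiac sum was mostly Nppa (mean 697 in TSA cells and 1183 in control cells). Mean Myh6, Tnni3 and Gata4, all dim, went the other way.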

Additional observations from a re-analysis of the deposited data

Results flagged for a closer look

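The effect of TSA differed between the 5 times for Mybph (F test of limma, adjusted p = 0.00639), which was 0.492 times the control mean at 24 h and 1.13 times it at 48 h. The same test passed for Myom2 (adjusted p = 0.00344), with a log2 change of -0.88 at 24 h and 0.57 at 48 h, of which the second did not pass by itself. This p can be too small, since control arrays at 0 and 4 h lay below 0 and have no spread in the fit. The F test passed as well for Actn3 162164_f_at (adjusted p = 0.00239), whose log2 change was lowest at 4 h (0.29) and highest at 48 h (1.60). Between 12 and 36 h the effect of Sir2 differed for Mybph (adjusted p = 0.0256), with a log2 change of -1.55 at 12 h and -0.56 at 36 h, and for Tpm1 (adjusted p = 0.0353), with -0.10 at 12 h and 0.55 at 36 h. Both calls were fragile. The Mybph call was lost in 7 and the Tpm1 call in 11 of the 12 fits that left out 1 array. With no filter on dim probe sets limma gave adjusted p = 0.0655 and 0.0851. Causes of these 5 differences were not tested.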

How the results depend on the processing

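Of 72 calls of member probe sets, 44 held under every alternative run and 28 were lost under at least 1. In all, 1760 of 1914 alternative values stayed past the threshold in the same direction, 154 missed it and 0 changed direction. The 14 calls of TSA against control became 1 when only the groups compared were fitted, which leaves 4 arrays in a fit, and 10 to 15 when 1 array was left out. In all, 23 of the 72 calls were lost in fits of the compared groups alone, 13 of them TSA against control and 2 Sir2 against vector. The F test of the TSA effect over times called 3 probe sets, and 5 with no filter on dim probe sets, by adding dim ones. The 10 calls of Sir2 against vector ranged from 6 to 10 when 1 array was left out. The 2 calls of the difference between the Sir2 effects became 0 with no filter, 1 with the replicate block, and 0 to 2 when 1 array was left out. Same-numbered replicates showed no steady joint deviation (correlations of their deviations from -0.0997 to 0.228 in the TSA arm and from -0.314 to 0.116 in the Sir2 arm). The highest were 0.172 at 12 h and 0.228 at 24 h in the TSA arm. With 2 arrays per group the replicates of a time share 1 value, so this cannot decide whether the numbers pair the arrays. With the replicate block, the calls of TSA against control stayed 14, and those of TSA-treated and of control cells against 0 h became 12 and 11 instead of 13 and 12, through Actn3 162164_f_at at 12 h (adjusted p = 0.0594) and Tpm2 at 24 h (0.0878). The 10 Sir2 calls became 9, through Myom1 at 36 h (0.0621), and the difference between the Sir2 effects on Tpm1 was also lost (0.0689). The causes of these shifts were not tested. Signal over background limits Actn2, Myom1 and the early values of Myom2 in the TSA arm, which lie at or near 0.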
